A study of Mus musculus with 6 samples.

Results

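The 37 genes described here encode proteins of the cardiac sarcomere and of its Z-disc, and they were taken from a list of symbols matched to the gene identifiers of the deposited table. All 37 were found among the 23808 genes of the table, 7 of the thick filament, 8 of the thin filament, 7 of titin and the M-band, and 15 of the Z-disc. The tissue was whole heart of female mice labelled WT, a genotype shared by both groups, and no strain was named. The HFD group (3 libraries) received a high-fat diet, and the NC group (3 libraries) received normal chow, in both cases between 4 and 12 weeks of age. The values were FPKM, fragments per kilobase scaled to the number of fragments, from mRNA-seq of total RNA, and they can be compared between genes because they are set per length. The labels give no animal for any library, so a p-value here rests on the spread between libraries, and that spread may be technical.

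The sarcomere is the contractile unit of striated muscle. Myosin heads of the thick filament pull on actin of the thin filament when calcium binds the troponin complex, titin spans from the Z-disc to the M-band as a spring, and the Z-disc anchors actin filaments of neighbouring sarcomeres and holds many mechanosensing proteins. In the adult mouse ventricle the alpha heavy chain Myh6 is the main motor, and a shift towards the fetal isoforms Myh7 and Acta1 is a known mark of cardiac stress.

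The libraries differed in ways that the diets do not describe. The first HFD library (HFD 1) had the lowest summed FPKM over all genes, 576334, against 687877 to 739406 in the other libraries, and 5 genes, the mitochondrial mt-Nd4l, mt-Cytb, mt-Nd4 and mt-Co2 and the pseudogene Gm28661, were listed at 0 in it. These 5 genes summed to 115764 to 145398 FPKM in the other libraries, and without them HFD 1, at 576334, lay among the sums of 549558 to 613592 of the rest. Markers of cardiomyocytes that are not members (10 of 10 in the table, none at 0, among them Mb and Atp2a2) summed to 15495 to 16699 FPKM on HFD and 15093 to 19385 FPKM on NC. Atrial markers (7 of 7, with Bmp10 at 0 in HFD 1) summed to 1550, 435 and 7174 FPKM in HFD 1 to HFD 3 and to 3571, 350 and 13998 FPKM in NC 1 to NC 3. HFD 3 and NC 3 were thus the libraries highest in atrial transcripts on either diet. Skeletal muscle markers (11 of 12 in the table) summed to at most 16.0 FPKM on either diet, and Tnnc2, Myh1, Myh2, Actn3 and Pvalb were listed at 0 in at least 1 library.

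Promoter letters are shown for the actin pair Acta1 and Actc1, whose isoform share was measured per library, and for Tnnt2, one of the members whose FPKM separated the diets. Each run is the 250 bases before the RefSeq gene start (GRCm38.p6), written 5′ to 3′ on the gene's own strand. Gene starts in GENCODE M21 differ from these. There the Actc1 gene covers 114047282 to 114053548 and so holds the printed Actc1 window, and the Acta1 gene begins at 123894751. Capitals mark matches to the letters CATTCC of the MCAT element, TATAAA of the TATA box, CAGCTG of an E-box and AGATAA of a GATA element, and to the CArG box and the MEF2 site, all searched on both strands. None of the matches shown overlap each other.
Acta1, chr8:123894776-123895025, minus strand: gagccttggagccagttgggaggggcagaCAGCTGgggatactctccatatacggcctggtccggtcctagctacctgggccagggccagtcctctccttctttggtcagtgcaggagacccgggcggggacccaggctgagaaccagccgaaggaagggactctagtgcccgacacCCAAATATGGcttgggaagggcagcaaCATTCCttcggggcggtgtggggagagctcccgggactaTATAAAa
Actc1, chr2:114052876-114053125, minus strand: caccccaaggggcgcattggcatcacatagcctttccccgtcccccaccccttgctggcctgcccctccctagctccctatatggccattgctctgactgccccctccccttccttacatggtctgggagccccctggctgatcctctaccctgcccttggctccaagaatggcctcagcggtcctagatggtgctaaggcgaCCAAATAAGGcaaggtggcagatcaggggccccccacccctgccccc
Tnnt2, chr1:135836084-135836333, plus strand: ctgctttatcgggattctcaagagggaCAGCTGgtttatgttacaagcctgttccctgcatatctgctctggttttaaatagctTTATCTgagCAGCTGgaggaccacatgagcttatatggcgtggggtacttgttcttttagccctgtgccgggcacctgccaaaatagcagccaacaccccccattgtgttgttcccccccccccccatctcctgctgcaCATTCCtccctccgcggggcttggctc

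The Acta1 window held 1 match each to the CArG box, MCAT, E-box and TATA letters, the Actc1 window held 1 CArG box, and the Tnnt2 window held 1 MCAT, 1 GATA on the opposite strand and 2 E-box matches. CArG boxes bind serum response factor, MCAT elements bind TEAD factors, and GATA elements bind GATA factors such as Gata4. Of the 37 members 33 had a RefSeq window, and a CArG box lay in 7 of them (21.2%), against 1.4% of all 27025 windows. Those 7 were Acta1, Actc1, Fhl1, Fhl2, Ldb3, Myl3 and Myom1. A MEF2 site lay in the windows of Mybpc3, Myoz2, Synpo2l, Ttn and Xirp2 (15.2% of members, against 0.518% of all windows). MCAT letters were in 11 members (33.3%, against 12.6% of all windows) and GATA letters in 8 (24.2%, against 10.3%). TATA letters (15.2% of members, 13% of all windows) and E-box letters (15.2% and 12.8%) were about as frequent in members as elsewhere. A match is a description of letters and not a bound site, and the groups of members with and without a motif were not compared for diet.

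No member passed the test between the diets. With limma on log2(FPKM + 1) and Benjamini-Hochberg adjustment, 0 of the 36 tested members had an adjusted p under 0.05 (0.9998 for each), as did 0 of all 11456 tested genes (0%, smallest adjusted p = 0.281). A gene was tested where its mean over the 6 libraries was at least 1 FPKM, which all members but Myom3 reached. At an unadjusted p under 0.05 there was 1 member, Tnni3, against 415 genes or 3.62% of all tested in either direction and 2.3% with a lower value on HFD, the direction of Tnni3. Tnni3 was under that p in 3 of the 15 alternatives run. With the replicate number as a block Acta1, Ankrd1 and Myh7b were under it in its place. Within equal numbers Acta1 was lower on HFD in replicate 2 and higher in 1 and 3, and Ankrd1 was higher only in replicate 3. The block p-values of Acta1 and Ankrd1 thus do not rest on differences of the same sign. Without NC 3 there were 5 members (Csrp3, Myl2, Tnnc1, Tnni3 and Tpm1) and without HFD 3 there were 2 (Ankrd1 and Fhl1), all lower on HFD. The share of all tested genes under that p was not taken for the alternatives, so these counts are not read as a result about the members. Fold changes were HFD minus NC on the log2(FPKM + 1) scale, so that a positive value is higher on HFD. They lay between −0.50 (Ankrd1) and 0.69 (Acta1), and 3 members exceeded 0.5 in size (Acta1, Myh7b and Ankrd1), where 5.84% of all genes did. The 95% interval of the fold change lay within ±1, a doubling or halving, for 33 of the 36 members, all but Myh7b, Acta1 and Ankrd1.

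By sign 13 members were higher and 23 lower on HFD, with a median of −0.09, while over all tested genes 46.9% were higher and 53.1% lower, and the median was −0.02. These signs rest on the scaling and on single libraries. Counts of members higher and lower stayed at 13 and 23 with median-of-ratios scaling but were 19 and 17 after scaling all libraries to equal sums (TPM), 18 and 18 after scaling to the sum of nuclear genes, and 23 and 13 after quantile normalization. Scaling to equal sums multiplied HFD 1 by 1.74 and the other libraries by 1.35 to 1.45, and the 5 genes at 0 enter the sum that sets this factor. Of them Gm28661, which lies on chromosome 1, also enters the sum of nuclear genes. All 5 also enter the ranks used by quantile normalization, at the bottom in HFD 1 and near the top elsewhere. Their part in the signs after quantile normalization was not tested. Without HFD 1 the counts were 20 and 16, and without HFD 3 they were 5 and 31. The median of all tested genes moved the same way, to 0.05 without HFD 1, −0.11 without HFD 3 and 0.09 as TPM. Relative to it the members' median was −0.03, −0.14 and −0.04, against −0.07 in the main fit.

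**Figure D1:**
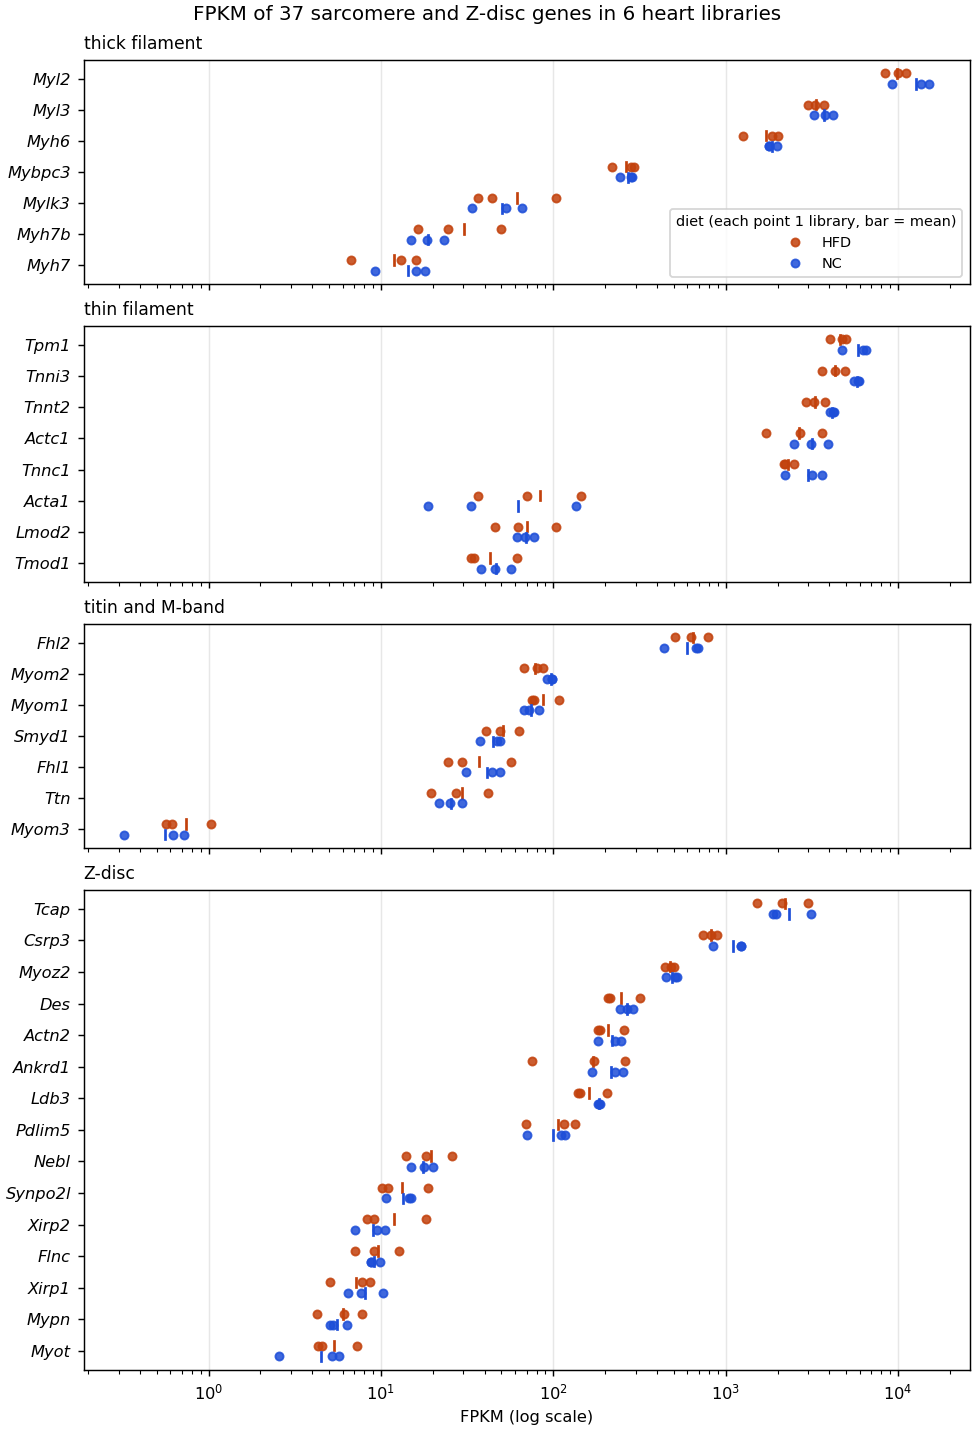
FPKM of each member (log axis) in the 3 HFD and 3 NC libraries, 1 point per library with a bar at the mean of the diet, in 4 panels by place in the sarcomere. Levels span from under 1 FPKM (Myom3) to 11271 FPKM on average (Myl2), and the points of the diets overlap in all members except Tnnt2, Tnni3 and Myom2.

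**Figure D2:**
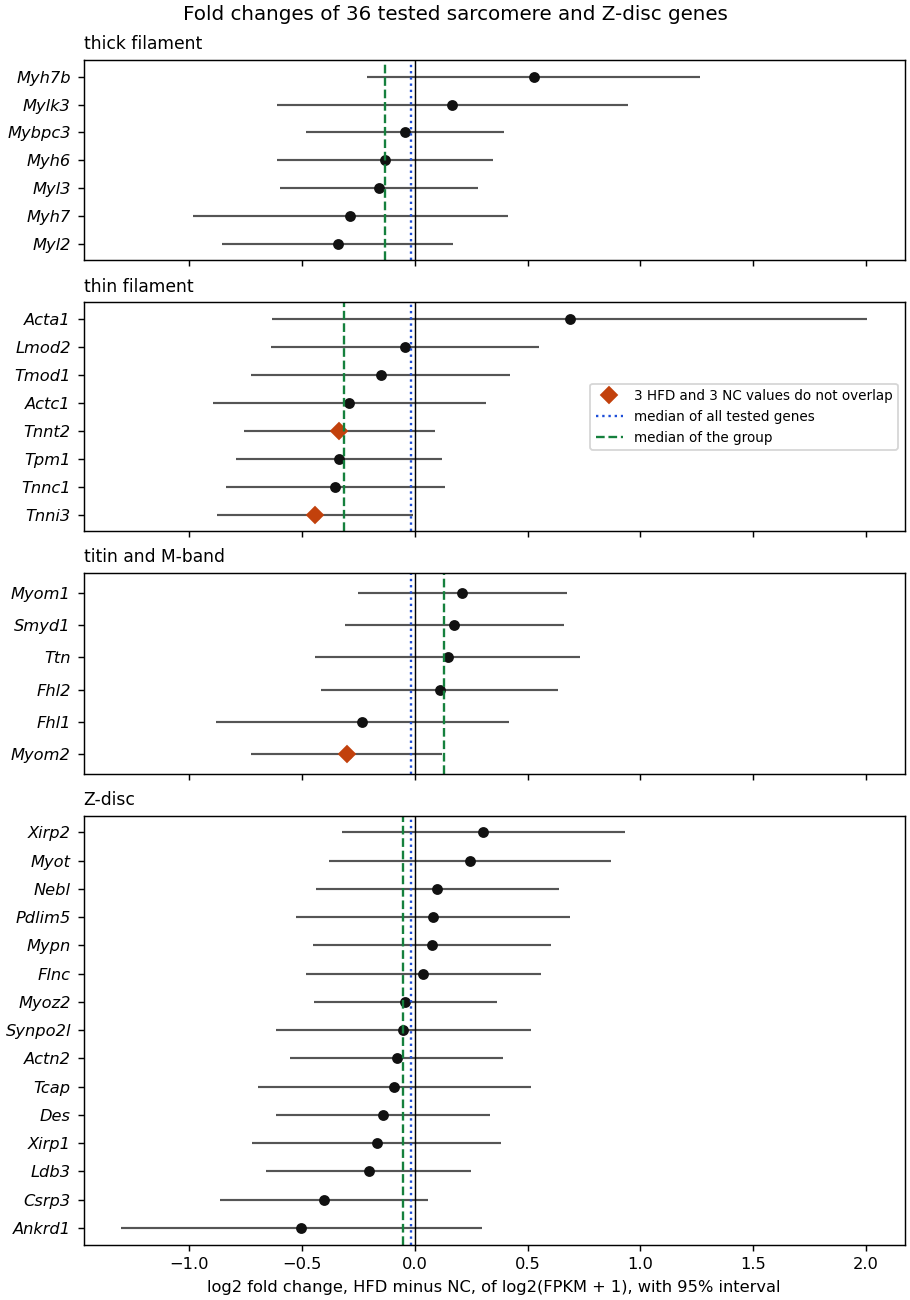
Fold change of the 36 tested members (log2, HFD minus NC, of FPKM + 1) with 95% intervals, and dashed and dotted lines at the median of the group and of all tested genes. The intervals cross 0 for all members except Tnni3, whose adjusted p was 0.9998.

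The 6 values of a member did not overlap between the diets for 3 of 37 members (8.11%), all with HFD below NC, while the same held for 8.13% of all tested genes in either direction with 4.88% HFD below and 3.25% HFD above. The members' count is therefore near that of the background. The 3 were the troponin genes Tnnt2 and Tnni3 of the thin filament and the myomesin gene Myom2 of the M-band.

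Of the 7 thick filament genes 2 were higher and 5 lower on HFD (median −0.13), and none passed the test. The light chain Myl2, the regulatory light chain of the ventricle, had the highest level of all members. It was at 10006, 11155 and 8410 FPKM in HFD 1 to HFD 3 and at 13578, 15202 and 9273 FPKM in NC 1 to NC 3. The lowest Myl2 value of either diet was thus that of the library with the most atrial transcripts, HFD 3 and NC 3. The fold change was −0.34 (SE 0.23) and turned to 0.07 after quantile normalization. The essential light chain Myl3 was at 2996, 3736 and 3299 FPKM on HFD and 3760, 4224 and 3243 FPKM on NC, with a fold change of −0.16 (SE 0.20) that was 0.02 after quantile normalization. Whether the atrial share of a library has a part in these values was not tested.

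Myh6, the alpha heavy chain, was at 1263, 1862 and 2020 FPKM on HFD and at 1775, 1775 and 1991 FPKM on NC. HFD 1 was the lowest and HFD 3 the highest of the 6 libraries, so that the HFD values enclosed all those on NC. The fold change of −0.13 (SE 0.22) turned to 0.07 without HFD 1 and 0.09 after quantile normalization. Myh7, the beta heavy chain that is the fetal ventricular motor in the mouse, was at 6.69, 13.1 and 15.9 FPKM on HFD and at 18.05, 16.1 and 9.21 FPKM on NC. HFD 1 was again lowest, with NC 3 next, and the fold change of −0.29 (SE 0.32) was 0.05 without HFD 1. Exons of Myh7 share 484 bases with the antisense gene Mhrt, which was at 24.6 to 55.9 FPKM on HFD and 29.2 to 55.8 FPKM on NC. The sources used here do not say whether reads were counted by strand, and without it reads of this pair cannot be told apart.

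Myh7b, an ancestral slow heavy chain that also hosts a microRNA, had the largest fold change of the thick filament. It was at 16.3, 49.8 and 24.4 FPKM on HFD and at 14.9, 23.1 and 18.5 FPKM on NC. Only HFD 2 and HFD 3 exceeded all NC values, and HFD 2 stood far above the rest. The fold change of 0.53 (SE 0.34, 95% interval −0.21 to 1.26) was 0.10 without HFD 2. Mylk3, the kinase that phosphorylates the ventricular light chain, averaged 61.2 ± 36.6 FPKM on HFD and 50.7 ± 16.1 FPKM on NC (SD, n = 3 each), with a fold change of 0.17 that was −0.28 without HFD 3. Mybpc3, the myosin-binding protein that tunes cross-bridge cycling, averaged 264.6 ± 39.2 FPKM on HFD and 271.5 ± 24.9 FPKM on NC (fold change −0.04, and 0.09 as TPM).

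Of the 8 thin filament genes 1 was higher and 7 lower on HFD (median −0.31), the lowest median of the 4 groups, and none passed the test. The median was −0.18 as TPM, where that of all genes was 0.09, and −0.01 after quantile normalization. Leaving out 1 library gave −0.42 (without HFD 3) to −0.13 (without HFD 2). In whole tissue, fewer cells of a type and less RNA per cell cannot be told apart.

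Tnni3 encodes cardiac troponin I, the inhibitory subunit, and its gene is placed by GENCODE M21 (mm10) on the minus strand of chromosome 7, 4518305 to 4524229. It was at 3621, 4941 and 4326 FPKM in HFD 1 to HFD 3 and at 5895, 5939 and 5576 FPKM in NC 1 to NC 3. All HFD values lay below all NC values, and the spread was wider on HFD. The fold change was −0.44 (SE 0.20, limma adjusted p = 0.9998). With 1 library left out it lay between −0.55 and −0.33, and it turned to 0.06 after quantile normalization. Its exons share 86 bases with Dnaaf3 on the same strand, which stayed under 3 FPKM.

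Tnnt2 encodes cardiac troponin T, which ties the complex to tropomyosin, and its gene covers 135836354 to 135852260 of chromosome 1 (plus strand). It was at 2909, 3263 and 3757 FPKM on HFD and at 4235, 4174 and 4045 FPKM on NC. The groups did not overlap, and the NC values lay within a narrow band. The fold change of −0.33 (SE 0.19) kept its sign under every scaling and every library left out. Tnnc1, the calcium-binding troponin C, averaged 2304 ± 173 FPKM on HFD and 3001 ± 725 FPKM on NC (SD, n = 3 each), with a fold change of −0.35 (SE 0.22). The groups overlapped because NC 3, at 2207 FPKM, lay among the HFD values. All 3 subunits of cardiac troponin thus had a negative fold change, which for Tnni3 alone turned positive after quantile normalization.

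Tpm1, the tropomyosin that covers the myosin-binding sites of actin, was at 4738, 4040 and 4986 FPKM on HFD and at 6267, 6507 and 4724 FPKM on NC. NC 3 fell within the HFD range, and the fold change of −0.34 (SE 0.21) turned to 0.20 after quantile normalization. Actc1, the cardiac alpha actin, was at 2692, 1717 and 3621 FPKM on HFD and at 3145, 3921 and 2482 FPKM on NC. HFD 2 was the lowest library and the groups overlapped. The fold change of −0.29 (SE 0.28) was −0.0029 without HFD 2.

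Acta1, the skeletal alpha actin, had the largest fold change of all members and also the widest spread within a diet. It was at 70.0, 36.4 and 145 FPKM on HFD and at 33.3, 135 and 18.8 FPKM on NC. HFD 3 and NC 2 were the high libraries, and the highest value was 7.70 times the lowest. The fold change of 0.69 (SE 0.61, 95% interval −0.63 to 2.01) was 0.09 without NC 3 and 1.48 without NC 2. Acta1 and Actc1 encode near-identical proteins. Their transcripts were not compared here, and how reads were assigned between them is not stated. At the pointed ends of actin, the capping gene Tmod1 had a fold change of −0.15 and the elongation factor gene Lmod2 one of −0.04, which was 0.08 as TPM. Tmod1 shares 1287 exon bases with Tstd2 on the opposite strand, which was at 3.85 to 5.03 FPKM.

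**Figure D3:**
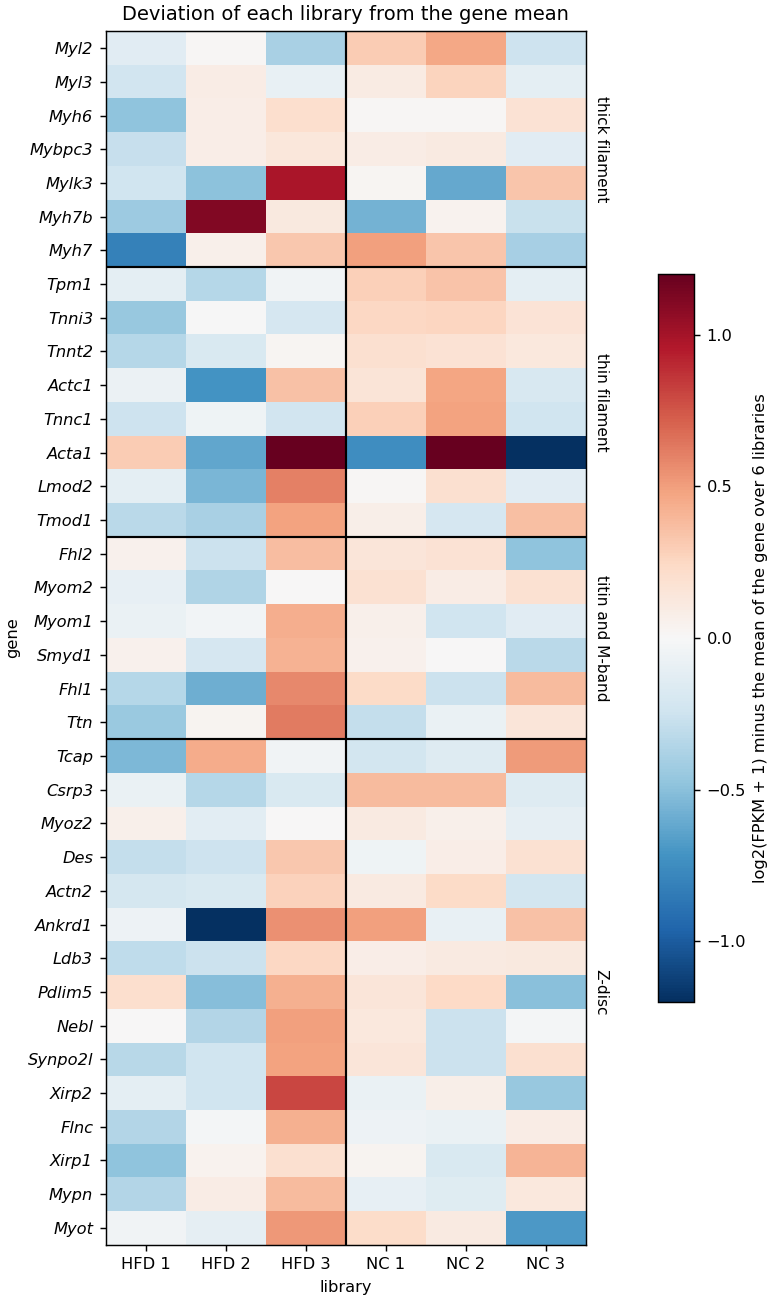
Deviation of log2(FPKM + 1) in each library from the mean of the gene over 6 libraries, for the 36 tested members (red above, blue below, with colours at the end of the scale where a value lies beyond it). The HFD 3 column is mostly red and HFD 1 mostly blue, HFD 2 is mostly blue outside the thick filament, and the highest and lowest cells are both in Acta1.

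Of the 6 tested genes of titin and the M-band 4 were higher and 2 lower on HFD (median 0.13), and none passed the test. The median was −0.09 without HFD 3 and −0.02 without NC 3, so the sign rests on these libraries. Ttn encodes titin, whose merged exons span 116825 bases, the longest of all members. It was at 19.4, 27.4 and 41.8 FPKM on HFD and at 21.8, 25.2 and 29.7 FPKM on NC. HFD 1 was the lowest and HFD 3 the highest library, and the fold change of 0.15 (SE 0.27) was −0.13 without HFD 3. Per length, titin was thus expressed at a low level beside the thin filament genes.

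Myom2, one of the myomesins that crosslink thick filaments at the M-band, covers 15057653 to 15133541 of chromosome 8 (plus strand). It was at 80.8, 67.2 and 87.0 FPKM on HFD and at 98.5, 92.1 and 98.7 FPKM on NC. All HFD values lay below all NC values, with a fold change of −0.30 (SE 0.20). Its paralog Myom1 averaged 86.8 ± 18.3 FPKM on HFD and 74.1 ± 7.95 FPKM on NC (SD, n = 3 each), with a fold change of 0.21 (SE 0.21) that lay between 0.05 and 0.30 with any 1 library left out. Myom1 and Myom2 thus had opposite signs under every scaling and every library left out, and the difference between them was not tested. Exons of Myom1 share 207 bases with Myl12a on the opposite strand, which was at 277 to 408 FPKM, and these reads may not be told apart. Myom3, the third myomesin, was at 1.04, 0.562 and 0.616 FPKM on HFD and 0.623, 0.322 and 0.722 FPKM on NC and was not tested.

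Fhl2, a LIM protein that binds titin and signalling enzymes, was the most abundant gene of this group. It was at 632, 511 and 788 FPKM on HFD and at 674, 688 and 436 FPKM on NC, and the diets overlapped. HFD 3 was the highest library and NC 3 the lowest, and the fold change of 0.11 (SE 0.24) was −0.10 without NC 3. The related Fhl1 averaged 36.8 ± 17.2 FPKM on HFD and 41.5 ± 9.21 FPKM on NC (fold change −0.23, and 0.0019 without HFD 2). Smyd1, a muscle methyltransferase that takes part in myosin assembly, averaged 50.9 ± 11.3 FPKM on HFD and 44.5 ± 6.2 FPKM on NC (SD, n = 3 each). Its fold change was 0.18 (SE 0.22), and it was 0.01 without HFD 3 and 0.06 without NC 3.

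Of the 15 Z-disc genes 6 were higher and 9 lower on HFD (median −0.05), the diets overlapped for all 15, and none passed the test. Counts of higher and lower were 1 and 14 without HFD 3, and 10 and 5 as TPM. The median of all tested genes was −0.11 and 0.09 in these settings. Tcap, the titin cap at the Z-disc, was the most abundant of them. It was at 1513, 2986 and 2133 FPKM on HFD and at 1884, 1971 and 3135 FPKM on NC. HFD 2 and NC 3 were the high libraries, and the fold change of −0.09 (SE 0.28) was 0.16 without HFD 1. Csrp3, the muscle LIM protein held to be part of a stretch sensor, was at 891, 743 and 828 FPKM on HFD and at 1227, 1221 and 845 FPKM on NC. NC 3 lay inside the HFD range, and the fold change was −0.40 (SE 0.21).

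Ankrd1, an ankyrin repeat protein that is held to be induced by stretch, had the largest negative fold change of the members. It was at 172, 74.8 and 262 FPKM on HFD and at 252, 168 and 229 FPKM on NC. HFD 3 held the highest value of the 6 libraries and HFD 2 the lowest. The fold change of −0.50 (SE 0.37, 95% interval −1.30 to 0.30) was −0.0066 without HFD 2, so it rests on that library.

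Of the crosslinking and scaffold genes, Actn2, the alpha-actinin that crosslinks actin at the Z-disc, averaged 208.6 ± 41.2 FPKM on HFD and 219.8 ± 34.1 FPKM on NC (SD, n = 3 each; fold change −0.08, and 0.05 as TPM). Ldb3, which encodes the actinin-binding protein ZASP, had a fold change of −0.20 (−0.11 without HFD 1), and Des, the intermediate filament desmin, one of −0.14 (−0.03 without HFD 1). Myoz2, a calcineurin-binding protein of the Z-disc, had the smallest spread of log2 values pooled over both diets, although Ldb3, Tnnt2 and Myom2, among others, varied less than it within NC. It was at 477.0 ± 30.8 FPKM on HFD and 491.4 ± 37.2 FPKM on NC (fold change −0.04, and 0.09 as TPM). The scaffold and signalling gene Pdlim5 had 0.08 and the nebulin-related Nebl 0.10. At lower levels, the actin-binding repeat genes Xirp1 and Xirp2 had −0.17 and 0.30, the filamin gene Flnc 0.04, the palladin relatives Mypn and Myot 0.08 and 0.24, and Synpo2l, which encodes an actin-associated protein, −0.05, or 0.07 as TPM. All 6 of these except Xirp1 had their highest value in HFD 3. For Xirp2 it was 18.2 FPKM in HFD 3, with 9.16 and 8.33 FPKM in HFD 1 and HFD 2, against 7.03 to 10.6 FPKM on NC.

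The HFD libraries differed among themselves across the members. HFD 3 held the highest value of 22 of the 37 members, HFD 1 the lowest of 15 and HFD 2 the lowest of 11. The mean deviation of the 36 tested members from their gene means was −0.21, −0.18 and 0.30 in HFD 1 to HFD 3 and 0.07, 0.09 and −0.07 in NC 1 to NC 3. The libraries on HFD thus lay on either side of those on NC. Summed over the members, which is mostly the most abundant genes, FPKM was 35534, 39383 and 39252 on HFD and 48033, 51678 and 40192 on NC. All HFD sums lay below all NC sums, with NC 3 closest. As a share of the FPKM of all genes that are not mitochondrially encoded, that was 7.40, 7.51 and 7.05% on HFD and 8.24, 10.02 and 7.14% on NC, and on this scale NC 3 lay within the HFD range. The sum below this share still holds the pseudogene Gm28661 of chromosome 1, at 0 in HFD 1 and at 33180 to 43727 FPKM elsewhere. The share of HFD 1 is thus raised beside those of the other libraries.

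The sign of the fold change went with the level. All 9 members with a mean over 1000 FPKM (Myl2, Tpm1, Tnni3, Tnnt2, Myl3, Actc1, Tnnc1, Tcap and Myh6) were lower on HFD, with a median of −0.33. Of all 57 genes at that level, which include these 9 and the genes listed at 0 in HFD 1, 64.9% were lower, with a median of −0.12. The count was 8 of 9 as TPM, 3 of 9 after quantile normalization, 7 of 9 without HFD 1 and 8 of 9 without NC 3. Between 100 and 1000 FPKM 7 of 9 members were lower (median −0.08), close to the 76.1% of all 415 genes there. Among the 14 members between 10 and 100 FPKM 8 were higher and 6 lower (median 0.12), where the median of all genes at that level was −0.06. Of the 4 members from 1 to 10 FPKM 3 were higher and 1 lower, where 48.9% of all genes were lower. Across the 36 tested members Spearman's rho between mean FPKM and fold change was −0.57, and across all 11456 tested genes it was −0.11. The genes share their 6 libraries and are not independent, so no p is given. Exon length also moved with the fold change, with rho 0.28 over the 36 members and 0.31 over 11441 genes. The median of all genes was −0.17 up to 1000 bases and 0.058 over 6000 bases. The part of length in the members' values was not tested.

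**Figure D4:**
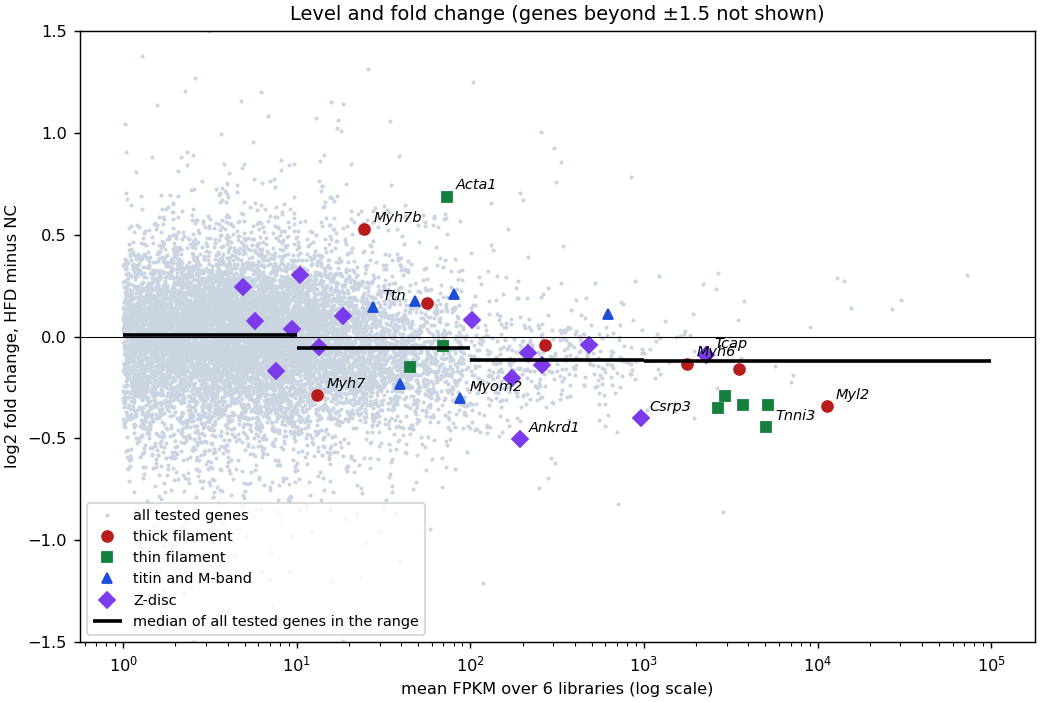
Mean FPKM over the 6 libraries (log axis) against the fold change (log2, HFD minus NC, of FPKM + 1) for all tested genes in grey and for the members by group, with black bars at the median of all genes in each range of level. All members right of 1000 FPKM lie below 0, and those with the largest positive values, Acta1 and Myh7b, lie between 10 and 100 FPKM.

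Isoform shares per library compared the members with their fetal, skeletal or atrial partners, each as a percent of the summed FPKM of the pair, and were tested by exact permutation over the libraries, two-sided, where p cannot go below 0.1. Myh7 made up 0.527, 0.696 and 0.781% of Myh6 + Myh7 on HFD and 1.01, 0.896 and 0.461% on NC. The means were 0.668 ± 0.129% on HFD and 0.788 ± 0.289% on NC (SD, n = 3 each; exact permutation p = 0.6, adjusted over the 4 shares 0.7). The adult alpha chain thus made up nearly all of the pair in every library. Acta1 made up 2.53, 2.07 and 3.84% of Acta1 + Actc1 on HFD and 1.05, 3.34 and 0.751% on NC. Here 2.82 ± 0.918% on HFD stood against 1.71 ± 1.42% on NC (SD, n = 3 each; exact permutation p = 0.3, adjusted 0.6), and NC 2 lay among the HFD values.

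Tnni1, the fetal troponin I, was under 3 FPKM in every library and made up 0.00741 ± 0.00279% of Tnni1 + Tnni3 on HFD and 0.0258 ± 0.0181% on NC (SD, n = 3 each; exact permutation p = 0.3, adjusted 0.6). NC 1 and NC 3 were the high libraries. Myl7, the atrial regulatory light chain, made up 2.85, 0.834 and 13.3% of Myl2 + Myl7 on HFD and 4.49, 0.237 and 17.3% on NC (exact permutation p = 0.7, adjusted 0.7). That share was highest in HFD 3 and NC 3, the libraries that were also highest in the summed atrial markers. The exact permutation p was at least 0.3 for each of the 4 shares. As it cannot go below 0.1, no difference could be shown at 0.05.

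**Figure D5:**
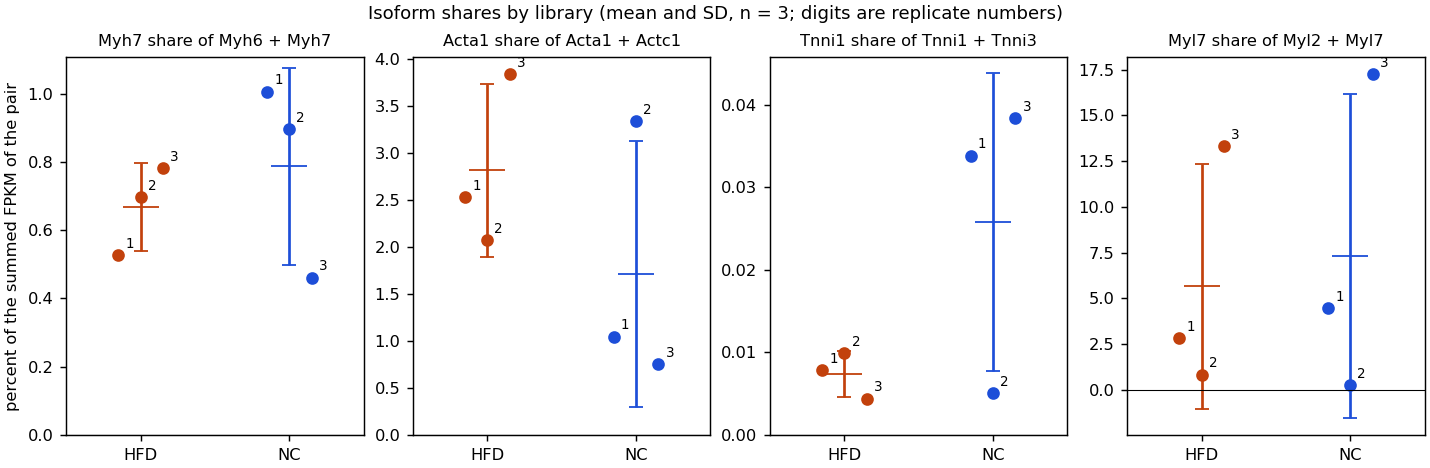
Share of Myh7, Acta1, Tnni1 and Myl7 in the summed FPKM of the isoform pair (percent) in each library, with the mean and SD of HFD and NC (n = 3 each) and digits for the replicate number. HFD and NC points overlap in all 4 panels, and the Myl7 share ranges from 0.237% in NC 2 to 17.3% in NC 3.

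Other genes of the pathway were read from lists of the same kind. Of 26 further sarcomere genes, 12 were higher and 14 lower on HFD (median −0.03), none passed the test and none had an unadjusted p under 0.05. Those of smallest p were Palld (0.34), an actin-bundling protein, and Nexn (0.32), a Z-disc actin-binding protein, on the higher side, and the small heat shock protein gene Cryab (−0.37) and Pdlim7 (−0.38) on the lower side. Cryab was at 1146, 1354 and 1446 FPKM on HFD and at 1672, 1784 and 1608 FPKM on NC, without overlap. Of 9 tested genes of skeletal, fetal or atrial isoforms, 2 were higher (Mybpc2 0.49, Tpm3 0.29) and 7 lower, with Tnni2 (−0.68) and Tpm2 (−0.69) at an unadjusted p under 0.05 and none past the adjusted one. Of all tested genes 2.3% were lower at the unadjusted p. Of 14 transcription factor genes that act on sarcomere promoters, 5 were higher and 9 lower (median −0.10), and none passed the test. Nkx2-5, a homeobox factor of cardiomyocytes, was at 15.6, 26.4 and 40.1 FPKM on HFD and at 39.3, 39.7 and 51.3 FPKM on NC (fold change −0.73, SE 0.30, unadjusted p under 0.05). HFD 1 was its lowest library, and HFD 3 lay within the NC range. Gata4 had −0.35, and the higher ones of smallest p were Mrtfb (0.24) and Mef2c (0.27).

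Markers of other cell types had fold changes mostly of 1 sign within a list, and none passed the adjusted test. Of 7 fibroblast markers 6 were lower on HFD (median −0.53), 3 of them at an unadjusted p under 0.05. Of all tested genes 2.3% were lower at that p. The fibroblast markers of smallest p were the collagen genes Col3a1 and Col1a1. Col3a1 was at 29.4, 18.7 and 38.4 FPKM on HFD and at 80.5, 54.1 and 92.0 FPKM on NC, without overlap (fold change −1.38, SE 0.28), and Col1a1 had −0.98. Lum was the 1 higher marker (0.04). The fibroblast sum, most of it Dcn, was 260 to 526 FPKM on HFD and 336 to 611 FPKM on NC, with no marker at 0.

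Of 5 smooth muscle markers all were lower on HFD (median −0.56), 3 at an unadjusted p under 0.05 and 2 without overlap. Of all tested genes 2.3% were lower at that p, and 4.88% had all HFD values below all NC values. Tagln (−0.87) and Myl9 (−0.95) had the smallest p, and the sum was 110 to 182 FPKM on HFD and 141 to 321 FPKM on NC, with no marker at 0. Of 7 endothelial markers all were higher on HFD (median 0.14), led by Pecam1 (0.54) and Tie1 (0.19), and none had an unadjusted p under 0.05. Their sum was 376 to 558 FPKM on HFD and 368 to 397 FPKM on NC, with no marker at 0. The highest endothelial sum was that of HFD 2, where Egfl7 was at 344 FPKM, and Kdr, Tek and Emcn had their highest value in NC 1. On the deposited scale these lists thus differed in sign, with fibroblast and smooth muscle markers lower and endothelial markers higher. Their signs were not examined under other scalings.

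Of 7 atrial markers 6 were lower on HFD (median −0.53), with Dkk3 and Bmp10 of smallest p and Sln the 1 higher. All 4 tested adipocyte markers were lower (Plin1 −0.57, Retn −0.58), their sums were 0.410 to 13.8 FPKM on HFD and 1.34 to 19.1 FPKM on NC, and Lep and Retn were at 0 in at least 1 library. All 5 blood markers had a positive value (Hbb-bs 0.26, Hbb-bt 0.17) that was smaller than its SE (0.64 to 0.72). Their sums were 1241 to 13371 FPKM on HFD and 2025 to 8294 FPKM on NC, lowest in HFD 3 and NC 3, with none at 0. Of 10 cardiomyocyte markers that are not members 4 were higher (Fabp3 and Ryr2 of smallest p) and 6 lower (Ckm and Cox6a2). Of 3 tested skeletal muscle markers Mybpc2 and Casq1 were higher and Tnni2 lower. The part of these cell types in the members' values was not tested.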

How the data were processed

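mRNA-seq libraries of mouse heart, 3 HFD and 3 NC, were compared. The authors deposited 1 table of FPKM values per gene and library. Per the submitters' processing notes the reads were handled with HISAT2 2.2.1 on mm10, HTSeq 0.13.5, Trimmomatic 0.38, DESeq2 1.18.1, FastQC 0.11.9 and R 3.4.1, in no stated order. The sources used here do not name the program that made the FPKM, the depth or the use of strand. Symbols were matched to 23718 of 23808 identifiers. Steps of single reads were sought under 0.3 FPKM, where 2.5 to 5.32% of ratios to NC 1 lay within 0.02 (log2) of the commonest. That showed no steps, so no counts or counting intervals are given.

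The 11456 genes averaging 1 FPKM or more were fitted on log2(FPKM + 1) in limma 3.58.1 (R 4.3.3, eBayes with trend), with two-sided Benjamini-Hochberg adjusted p under 0.05 as the threshold. The pseudocount understates changes of low genes. The fit was tested on simulated data first. Shares used exact permutation tests. Figures used matplotlib 3.10.9, coordinates GENCODE M21, promoters RefSeq GRCm38.p6. Values in every library are given for members without overlap, the top pair by level and the largest fold change of each group, and Myh6, Myh7, Actc1, Acta1 and Ttn. Of each other list, the pair of smallest p in each direction is named. Lum, Dcn, Cryab, Nkx2-5, Col3a1, Egfl7, Kdr, Tek and Emcn were singled out or given by library after their values were seen. The members and lists were chosen with earlier results of these data known. Alternatives were other pseudocounts, filters and scalings, eBayes without trend, a replicate block and each library left out. Scaling to the sum of nuclear genes was chosen after seeing the data.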

Additional observations from a re-analysis of the deposited data

How the results depend on the processing

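In every alternative run 0 members passed the adjusted threshold. The count of genes past the threshold, 0, was 73 with the replicate number as a block, none of them members, and 0 to 1 when 1 library was left out. Acta1, whose differences within equal numbers varied in sign, had an unadjusted limma p of 0.0078 in the block fit and 0.279 in the main fit. A block p thus need not follow a gene's own spread, and the 73 are not read as genes that differ by diet. Same-numbered libraries of the diets deviated with correlations of 0.193, 0.0864 and 0.275, all positive, and different-numbered ones with −0.361 to 0.25. HFD 1 correlated best with NC 2 (0.25), HFD 2 with NC 3 (0.0927) and HFD 3 with NC 3 (0.275). On both diets the atrial sums were highest in replicate 3 and lowest in replicate 2, and the blood sums were the reverse. The labels name nothing shared by equal numbers, so the main fit did not pair the libraries. Whether equal numbers share a source was not tested. With the block the exact p of the shares was 0.75 (Myh7) and 0.5 (Acta1, Tnni1, Myl7).

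Pseudocount, filter and eBayes settings and median-of-ratios scaling turned the sign of 0 members. Scaling to equal sums (TPM) moved the median of all genes to 0.09 and turned 6 members, Mybpc3 (0.087), Lmod2 (0.085), Actn2 (0.051), Tcap (0.041), Myoz2 (0.089) and Synpo2l (0.070). Relative to all genes the members' median was then −0.04. Scaling to nuclear genes turned 5, Mybpc3 (0.046), Lmod2 (0.044), Actn2 (0.0095), Myoz2 (0.048) and Synpo2l (0.031). Quantile normalization turned 10, Myh6 (0.086), Myl2 (0.066), Myl3 (0.024), Mybpc3 (0.051), Tnni3 (0.061), Tpm1 (0.20), Lmod2 (0.046), Actn2 (0.020), Tcap (0.10) and Myoz2 (0.054). The genes listed at 0 in HFD 1 enter the ranks used by quantile normalization, and the cause of these turns was not tested.

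Leaving out 1 library at a time turned the sign of 20 members, whose fold changes then ranged from −0.27 to 0.073 for Myh6, −0.56 to 0.047 for Myh7, −0.28 to 0.46 for Mylk3, −0.12 to 0.084 for Mybpc3, −0.43 to 0.0038 for Tmod1, −0.36 to 0.22 for Lmod2, −0.13 to 0.40 for Ttn, −0.58 to 0.0019 for Fhl1, −0.10 to 0.26 for Fhl2, −0.24 to 0.013 for Actn2, and from −0.33 to 0.16 for Tcap, −0.12 to 0.30 for Nebl, −0.10 to 0.011 for Myoz2, −0.041 to 0.41 for Myot, −0.17 to 0.22 for Flnc, −0.096 to 0.27 for Mypn, −0.31 to 0.031 for Xirp1, −0.023 to 0.50 for Xirp2, −0.31 to 0.10 for Synpo2l and −0.15 to 0.36 for Pdlim5. The difference in the Myl7 share ranged from −5.49 to 3.30 percentage points.

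The sign held, at sizes down to 0.012 (Smyd1), −0.0029 (Actc1), −0.0066 (Ankrd1) and −0.033 (Des), under every scaling and every library left out for Myh7b, Acta1, Myom1 and Smyd1 (higher on HFD) and for Actc1, Tnnt2, Tnnc1, Myom2, Ldb3, Des, Csrp3 and Ankrd1 (lower on HFD). Unknown depth, 3 libraries a diet and values at 0 in HFD 1 limit the precision.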
